A study of Mus musculus with 79 samples.

Results

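The genes described here are 41 of the 19505 mouse genes measured: the glutathione S-transferases, the glutathione peroxidases and the enzymes that make glutathione or that are standard targets of the transcription factor NRF2. Members were matched by gene symbol, with no threshold on any measured value. The set holds 4 genes of glutathione supply (Gclc, Gclm, Gss and Slc7a11), 5 reductases or stress enzymes (Gsr, Hmox1, Nqo1, Srxn1 and Txnrd1), 8 glutathione peroxidases, 21 cytosolic or mitochondrial glutathione S-transferases and 3 microsomal ones. All 41 were measured and tested with no filter on low values. Of these, 16 had a mean below 6.88, the mean of the median gene on the log2 scale, among them Gpx2, Gpx5, Gsta2, Gsta3, Gsto2 and Gstt4.

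Glutathione is a small cysteine-containing peptide and the main soluble antioxidant of cells. Cystine enters the cell through Slc7a11, glutamate-cysteine ligase (catalytic subunit Gclc, modifier subunit Gclm) joins glutamate and cysteine, and glutathione synthetase (Gss) adds glycine. Peroxidases spend glutathione to reduce peroxides, transferases attach it to reactive compounds, and glutathione reductase (Gsr) returns the oxidised form to use. NRF2, encoded by Nfe2l2, is held down by KEAP1 and, when released, binds antioxidant response elements (AREs) near genes such as Nqo1, Hmox1, Txnrd1 and Srxn1. In tumors the same enzymes are expressed by cancer cells and by host cells alike, and adipocytes, macrophages and fibroblasts each have their own set of them.

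The promoter sequences of 4 members are shown because the ARE core lies in them and because these genes recur in the results below: Txnrd1 and Srxn1 in the difference between tumor lines, Gclm and Srxn1 among the pairs that varied together, and Mgst1 among the genes that varied with adipocyte and fibroblast markers. The core searched was TGACNNNGC, on both strands, in windows of 300 bases from 250 before to 50 after each RefSeq start (GRCm38.p6). It was present in 4071 of 32851 windows of all genes (12.4%) and in 7 of the 50 windows (14%) of the 36 members that matched a window. The members were Gclm, Gsta3, Gstm5, Gstm7, Mgst1, Srxn1 and Txnrd1. The longer form TGACTCAGC, which holds the core, was in 149 windows (0.454%) and in 0 of the 50. Both patterns begin with TGAC, so sequences that begin with TGAG were not counted in any window. The Srxn1 window holds 1 such sequence, TGAGTCAGC, before the start. Both lie upstream of the Srxn1 core match and outside the Srxn1 stretch. Gclc, Gsr, Hmox1, Gsta4 and Gstt2 were not matched to a window. The stretches below are read 5′ to 3′ on the + strand, with the core, here as its reverse complement, in capitals. They are chr3:122245307-122245556 for Gclm, with the first base of the core 134 bases before the start, chr10:82858956-82859205 for Txnrd1 (92 before), chr2:152105542-152105571 for Srxn1 (28 after) and chr6:138140277-138140526 for Mgst1 (56 before). A match of these letters is a description of the sequence and was not tested as a binding site.
Gclm: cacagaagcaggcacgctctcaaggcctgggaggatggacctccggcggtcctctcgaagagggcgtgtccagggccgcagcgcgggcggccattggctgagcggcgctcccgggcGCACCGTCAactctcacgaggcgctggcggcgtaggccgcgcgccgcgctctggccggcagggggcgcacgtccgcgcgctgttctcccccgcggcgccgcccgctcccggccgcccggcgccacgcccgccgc
Txnrd1: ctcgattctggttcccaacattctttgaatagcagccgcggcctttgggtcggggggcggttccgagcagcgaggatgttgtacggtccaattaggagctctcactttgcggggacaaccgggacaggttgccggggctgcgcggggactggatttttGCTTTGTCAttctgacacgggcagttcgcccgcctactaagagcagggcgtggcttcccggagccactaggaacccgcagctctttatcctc
Srxn1: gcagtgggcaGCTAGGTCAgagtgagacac
Mgst1: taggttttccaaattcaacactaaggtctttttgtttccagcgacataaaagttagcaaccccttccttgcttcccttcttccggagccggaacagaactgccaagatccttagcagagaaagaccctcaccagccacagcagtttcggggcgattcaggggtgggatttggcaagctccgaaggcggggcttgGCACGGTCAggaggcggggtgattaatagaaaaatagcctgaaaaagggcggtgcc

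The 79 tumors came from female C57BL/6J mice and from 3 murine triple-negative breast cancer lines. E0771 cells carry GFP and a NanoLuc luciferase, while metM-Wnt-lung and its counterpart metM-Wnt-liver are subclones of an MMTV-Wnt1 derived line taken from metastases. Cells of 1 line were injected into mammary fat pad 4 of each mouse (20000 cells). Mice were 8 to 9 weeks old at the start and 33 to 34 weeks at the end. They received a low-fat control diet (Con, 10 kcal% fat) or a 60 kcal% fat diet that makes them obese (DIO, diet-induced obesity), for 15 weeks, and then the same diet without or with 140 ppm sulindac, an inhibitor of COX1 and COX2, for 5 weeks before injection (ConSul, DIOSul). E0771 gave 6 Con, 6 ConSul, 8 DIO and 8 DIOSul tumors, metM-Wnt-lung 6, 6, 7 and 7, and metM-Wnt-liver 7, 4, 7 and 7. Each line is a single cell line, and host cells of the mouse are part of every tumor RNA sample, so that fewer cells of a type and less RNA per cell cannot be told apart. Each tumor is a separate mouse by the labels, which name no batch. The comparisons answer what obesity did (DIO against Con), what sulindac did in obese and in control mice (DIOSul against DIO, ConSul against Con), and how the lines differ.

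Values are array signals on the log2 scale, so a difference of 1 is a doubling of signal, and the level of a gene is not comparable with that of another gene probed by other probes. Array medians lay between 6.285 and 6.805. The 6 metM-Wnt-lung Con and the 4 metM-Wnt-liver ConSul arrays stood apart from the other 41 metM-Wnt arrays by a wider range of values. Between the 1st and 99th percentiles they spanned 13.13 to 13.38, against 12.88 to 13.08 in the others. E0771 arrays were not sorted by range. In E0771 ConSul the 1st percentile was 3.16 to 3.22 and the 99th 16.26 to 16.39. Over all lines, 22 arrays were high in skeletal muscle (18) or skin (5) markers. Adipocyte markers (10 measured) averaged 9.19 to 15.76 in metM-Wnt-lung Con and 10.83 to 13.18 in metM-Wnt-liver ConSul, against 3.84 to 10.82 in the other metM-Wnt tumors. Of the mammary tumor markers, line means lay below the median gene for Epcam (4.82 to 6.45), Krt18 (4.55 to 5.64), Krt19 (4.64 to 6.59), Esr1 (5.87 to 6.66) and Pgr (4.38 to 4.57), about at it for Cdh1 (5.52 to 6.91) and above it for Krt8 (8.26 to 13.75), Erbb2 (7.78 to 9.43) and Vim (17.40 to 17.93). Close paralogs such as Gstp1 and Gstp2 or the Gstm genes may share signal through similar probes, and were read as uncertain where they moved together.

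The clearest pattern among the 41 genes was between tumor lines. Each line was a separate set of tumors, so a difference between lines cannot be told apart from one between runs. In E0771, 21 members were higher and 10 lower than in metM-Wnt-lung (limma, adjusted p under 0.05, groups weighted equally), beside 33.9% and 29.2% of all genes called higher and lower. Against metM-Wnt-liver, 18 were higher and 11 lower, beside 33.5% and 29.3%. The median difference of the members was 0.26 and 0.19, where that of all genes was 0.02 in both. As these backgrounds show, most genes differed between the lines, and 17 members were higher and 9 lower in E0771 than in both other lines.

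Among the NRF2 target enzymes, Txnrd1, Srxn1 and Hmox1 were high in E0771 and Nqo1 was low. Txnrd1, cytosolic thioredoxin reductase, had a lowest, median and highest value of 14.44, 14.88 and 15.25 in the 28 E0771 tumors, 13.24, 13.68 and 14.24 in the 26 metM-Wnt-lung tumors and 13.07, 13.68 and 14.56 in the 25 metM-Wnt-liver tumors. The E0771 range lay wholly above that of metM-Wnt-lung and overlapped only the top of metM-Wnt-liver. The differences were 1.14 ± 0.07 (SE, adjusted p = 7.95e-26) and 1.15 ± 0.07 (adjusted p = 1.59e-25).

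Srxn1, sulfiredoxin, which repairs over-oxidised peroxiredoxins, lay at 12.26, 12.61 and 13.30 in E0771, at 10.32, 10.98 and 12.13 in metM-Wnt-lung tumors and at 9.43, 10.98 and 12.23 in those of metM-Wnt-liver. No tumor of either metM-Wnt line reached the lowest E0771 tumor. E0771 was higher by 1.54 ± 0.12 (adjusted p = 8.53e-20) and by 1.69 ± 0.12 (adjusted p = 3.87e-21). Hmox1, which breaks down heme, spread far more, at 12.97, 15.25 and 16.47 against 11.15, 12.88 and 14.97 in metM-Wnt-lung tumors and 11.50, 13.26 and 16.72 in those of metM-Wnt-liver. Its ranges overlapped, and the differences of 2.26 ± 0.27 (adjusted p = 8.49e-12) and 1.66 ± 0.27 (adjusted p = 1.63e-07) were both past the threshold.

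Nqo1, a quinone reductase often used to read NRF2 activity, ran the other way. It lay at 5.39, 7.55 and 8.36 in E0771, at 7.68, 9.11 and 10.60 in metM-Wnt-lung tumors and at 7.25, 8.22 and 9.66 in those of metM-Wnt-liver. The E0771 median was below the lowest metM-Wnt-lung tumor, and the ranges overlapped in both cases. The differences were -1.75 ± 0.17 (adjusted p = 1.98e-15) and -0.83 ± 0.17 (adjusted p = 1.72e-05). The second was not called in every condition: it was -1.62 in Con tumors (adjusted p = 4.03e-05) and -1.08 in ConSul tumors (adjusted p = 0.0232), but -0.35 in DIO tumors (adjusted p = 0.399) and -0.26 in DIOSul tumors (adjusted p = 0.52). The test of the diet dependence itself, the DIO minus Con difference of Nqo1 in E0771 less that in metM-Wnt-liver, did not pass (1.28 ± 0.46, adjusted p = 0.23).

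**Figure D1:**
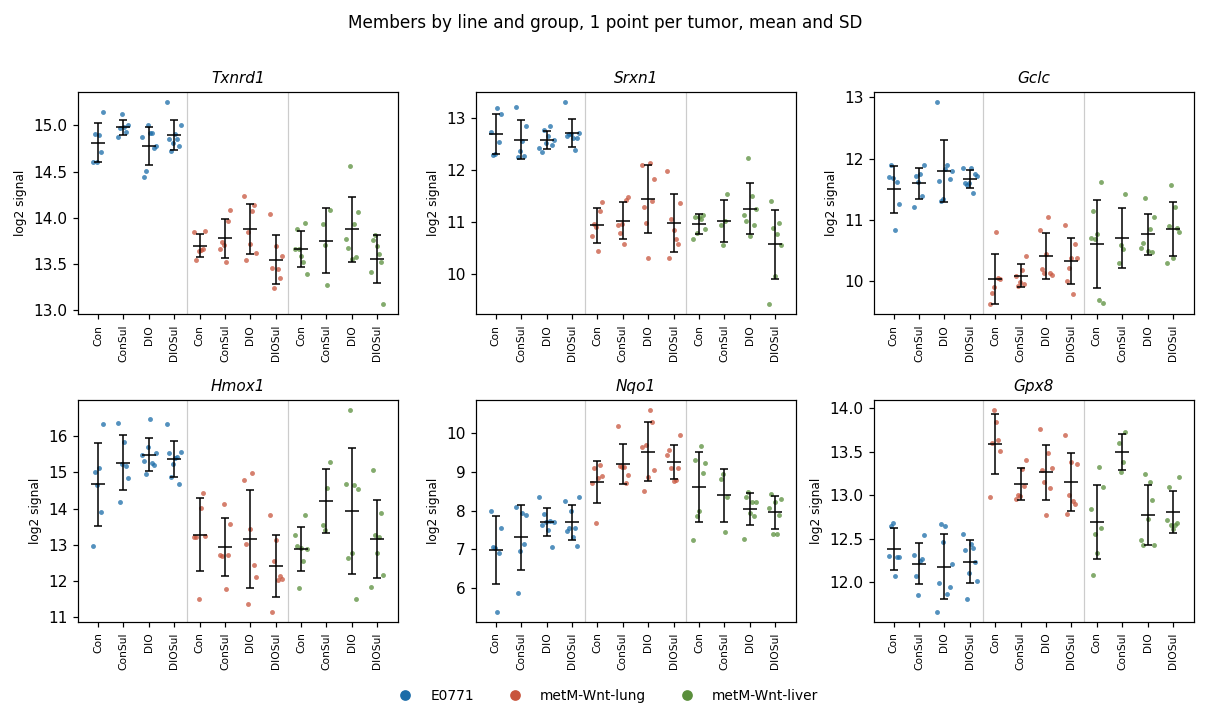
Array signal (log2 scale, vertical axis) of Txnrd1, Srxn1, Gclc, Hmox1, Nqo1 and Gpx8 in each of the 79 tumors, by tumor line and group (horizontal axis); points are tumors, bars the group mean with SD. E0771 tumors lie at 12.26 to 13.30 for Srxn1, above every metM-Wnt tumor, and at 11.66 to 12.68 for Gpx8, below every metM-Wnt-lung tumor.

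Genes of glutathione supply were higher in E0771 than in metM-Wnt-lung in 4 of 4 cases, where 33.9% of all genes were. Against metM-Wnt-liver 2 were higher and 1 lower, beside 33.5% and 29.3% of all genes. Gclc lay at 10.83, 11.68 and 12.92 in E0771, at 9.62, 10.13 and 11.04 in metM-Wnt-lung tumors and at 9.63, 10.70 and 11.62 in those of metM-Wnt-liver. The ranges met only at their ends for metM-Wnt-lung, and E0771 was higher by 1.43 ± 0.11 (adjusted p = 4.33e-19) and 0.91 ± 0.11 (adjusted p = 1.1e-10). Gss differed less, by 0.50 ± 0.10 (adjusted p = 2.5e-05) and 0.64 ± 0.11 (adjusted p = 3.23e-07). Its medians were 8.47 in E0771, 8.05 in metM-Wnt-lung tumors and 7.97 in those of metM-Wnt-liver.

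The modifier subunit and the cystine importer set the metM-Wnt lines apart from each other. Gclm lay at 11.32, 12.33 and 13.23 in E0771, at 11.09, 11.79 and 12.76 in metM-Wnt-lung tumors and 11.71, 12.35 and 14.16 in those of metM-Wnt-liver. It was 0.55 ± 0.13 higher in E0771 than in metM-Wnt-lung (adjusted p = 0.000152) and 0.75 ± 0.13 lower in metM-Wnt-lung than in metM-Wnt-liver (log2 difference -0.75, adjusted p = 1.18e-05). Slc7a11 ranged over several units within each line, from 6.60 to 11.44 in metM-Wnt-liver, from 5.65 to 10.42 in metM-Wnt-lung and from 5.48 to 10.27 in E0771. Its medians of 9.11, 6.83 and 8.10 put E0771 between the metM-Wnt lines, with differences of 0.75 ± 0.33 (adjusted p = 0.0412) over metM-Wnt-lung and -0.85 ± 0.34 (adjusted p = 0.0244) against metM-Wnt-liver. In ConSul tumors alone the Slc7a11 difference over metM-Wnt-lung was -0.26.

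Glutathione reductase, Gsr, was highest in E0771, then in metM-Wnt-lung, then in metM-Wnt-liver, with lowest, median and highest values of 14.42, 15.02 and 15.64, of 14.17, 14.65 and 15.81, and of 13.27, 13.99 and 14.89. E0771 exceeded metM-Wnt-liver by 0.93 ± 0.08 (adjusted p = 2.91e-17) and metM-Wnt-lung by 0.25 ± 0.08 (adjusted p = 0.00348). The latter was not called within any single condition. The step from metM-Wnt-lung to metM-Wnt-liver was 0.67 ± 0.08 (adjusted p = 3.8e-10).

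Transferases differed between lines in both directions, in the mu, pi and microsomal classes also within the class. All 4 theta genes were higher in E0771 than in either metM-Wnt line, where 33.9% and 33.5% of all genes were. So was Gstk1, the kappa enzyme of mitochondria and peroxisomes. Gstk1 had a lowest and a median value of 10.33 and 11.05 in E0771, and lay at 6.67, 8.04 and 10.76 in metM-Wnt-lung tumors and 7.14, 8.18 and 9.32 in those of metM-Wnt-liver. It was the member with the largest differences, 2.78 ± 0.14 (adjusted p = 2.36e-29) and 2.79 ± 0.14 (adjusted p = 8.18e-29). Gstt3 lay at 7.80, 8.94 and 9.70 in E0771 and did not overlap metM-Wnt-lung (4.96, 6.48 and 7.55), with differences of 2.46 ± 0.14 (adjusted p = 1.3e-26) and 1.96 ± 0.14 (adjusted p = 8.72e-21). Gstt1 differed by 2.05 ± 0.23 and 2.27 ± 0.23 (adjusted p = 8.66e-13 and 4.67e-14). Of the theta genes, Gstt1, Gstt2 and Gstt4 were dimmer than the median gene (means 5.87, 6.8 and 3.87).

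Of the pi class, Gstp1 and Gstp2 were higher and Gstp3 lower in E0771 than in both other lines. Gstp1, an abundant transferase of many tumors, lay at 12.72, 14.27 and 14.87 in E0771, at 12.27, 13.16 and 13.92 in metM-Wnt-lung tumors and 12.34, 13.14 and 13.96 in those of metM-Wnt-liver. The differences were 1.07 ± 0.11 (adjusted p = 1.16e-13) and 0.99 ± 0.11 (adjusted p = 5.12e-12), with overlapping ranges. Of the 7 mu genes, 4 were higher and 1 lower than in metM-Wnt-lung, beside 33.9% and 29.2% of all genes. Against metM-Wnt-liver 3 were higher and 2 lower, beside 33.5% and 29.3%. Gstm1 was highest in metM-Wnt-liver: its median was 12.30 there, and 11.04 in metM-Wnt-lung and 10.89 in E0771, which lay below it by 1.47 ± 0.22 and 1.64 ± 0.22 (log2 differences -1.47 and -1.64, adjusted p = 2.58e-07 and 4.85e-10). For metM-Wnt-lung this was not called in Con tumors alone (-0.70, adjusted p = 0.227) or in DIOSul tumors alone (-1.04, adjusted p = 0.138). Of the 3 alpha genes 0 were called between any pair of lines; Gsta4, whose enzyme clears lipid aldehydes, had medians of 5.53, 5.53 and 5.43, below the median gene.

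Of the 8 glutathione peroxidases, 1 was higher and 5 lower in E0771 than in metM-Wnt-lung, and 0 higher and 4 lower than in metM-Wnt-liver, where 29.2% and 29.3% of all genes were lower. Among the called ones, Gpx5, Gpx6 and Gpx7 were dimmer than the median gene (means 3.86, 5.02 and 6.22). Gpx8, a peroxidase of the endoplasmic reticulum, lay at 11.66, 12.28 and 12.68 in E0771, wholly below metM-Wnt-lung (12.77, 13.29 and 13.98) and overlapping metM-Wnt-liver (12.08, 12.73 and 13.73). Its differences were -1.03 ± 0.08 (adjusted p = 4.02e-18) and -0.69 ± 0.09 (adjusted p = 1.02e-10). Gpx4, which reduces lipid peroxides and restrains ferroptosis, differed by less, -0.44 ± 0.07 (adjusted p = 3.11e-07) and -0.41 ± 0.08 (adjusted p = 2.46e-06), with values of 13.84, 14.29 and 15.19 in E0771, at 14.41, 14.74 and 15.25 in metM-Wnt-lung tumors and 14.11, 14.60 and 15.74 in those of metM-Wnt-liver. Within single conditions Gpx4 was not called against metM-Wnt-lung in Con or ConSul tumors (-0.28 and -0.29, adjusted p = 0.152 and 0.134). Against metM-Wnt-liver it was not called in Con tumors (-0.27, adjusted p = 0.143).

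**Figure D2:**
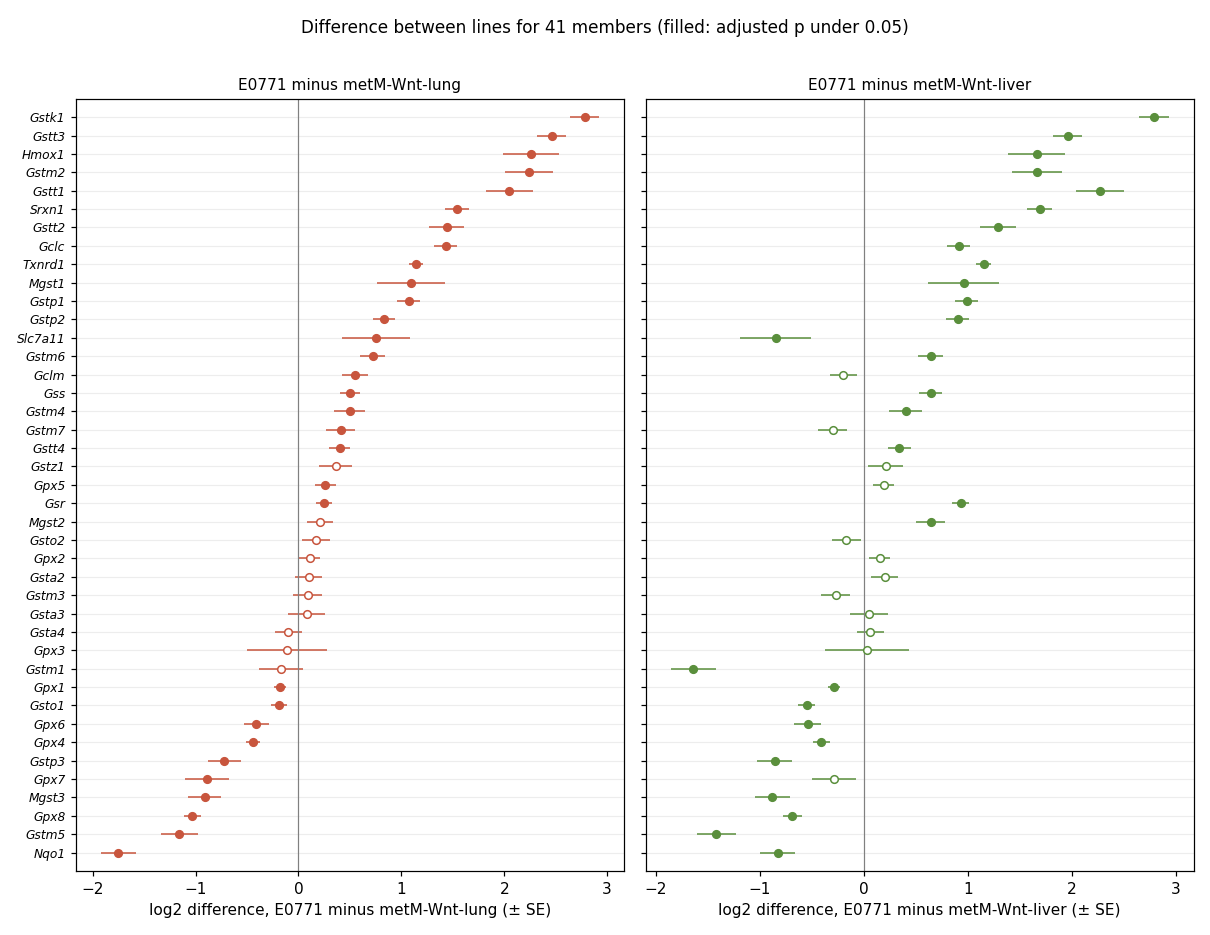
Difference in array signal between lines (log2 scale, horizontal axis, with SE) for each of the 41 genes (vertical axis), E0771 minus metM-Wnt-lung and E0771 minus metM-Wnt-liver; filled points have an adjusted p under 0.05. Gstk1 (2.78 and 2.79) stands at the upper end, and Nqo1 (-1.75) and Gstm1 (-1.64, against metM-Wnt-liver) at the lower end.

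Some of these line differences were called without the arrays of wider range and others were not. Within DIO tumors alone, then within DIOSul tumors alone, the difference from metM-Wnt-lung was 0.89 and 1.35 for Txnrd1, 1.14 and 1.73 for Srxn1, 1.39 and 1.35 for Gclc and 2.33 and 2.97 for Hmox1. From metM-Wnt-liver it was 0.90 and 1.34 for Txnrd1, 1.32 and 2.14 for Srxn1, 1.03 and 0.82 for Gclc and 1.56 and 2.21 for Hmox1, and each of these was called, as were those of Gstk1 and Gstt3. Gss was called in neither condition against metM-Wnt-lung (0.37 and 0.40, adjusted p = 0.13 and 0.0945), and Slc7a11 in neither against metM-Wnt-liver (-0.28 and -0.53, adjusted p = 0.752 and 0.508). In DIO tumors the calls were also lost for Gclm against metM-Wnt-lung (0.34, adjusted p = 0.278) and for Gss against metM-Wnt-liver (0.38, adjusted p = 0.118). Host cell markers also differed between lines: of 8 macrophage markers 7 were lower and 1 higher in E0771 than in metM-Wnt-lung (median -1.27), of 6 fibroblast markers 6 were lower (median -1.26), of 6 T cell markers 6 were lower (median -2.34) and of 10 adipocyte markers 10 were higher (median 3.49). Of all genes 29.2% were lower and 33.9% higher there. The averaged macrophage markers lay at 11.24 to 13.61 in E0771 and at 12.22 to 15.15 over the metM-Wnt lines. The part of these cells in the line differences was not tested.

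The regulators of the pathway did not follow a single direction. Of 10 NRF2 regulators, 5 were higher and 4 lower in E0771 than in metM-Wnt-lung (median 0.21), beside 33.9% and 29.2% of all genes. Against metM-Wnt-liver 5 were higher and 3 lower (median 0.03), beside 33.5% and 29.3%. Nfe2l2 was lower by 0.84 ± 0.08 (log2 difference -0.84, adjusted p = 1.36e-14) against metM-Wnt-lung and by 0.77 ± 0.09 (log2 difference -0.77, adjusted p = 1.12e-12) against metM-Wnt-liver. Keap1, its inhibitor, was lower as well, with log2 differences of -0.90 ± 0.08 (adjusted p = 1.16e-17) and -0.70 ± 0.08 (adjusted p = 8.97e-13). Sqstm1, the autophagy adaptor that can take up KEAP1, was higher by 0.80 ± 0.08 (adjusted p = 2.25e-14) and by 1.13 over metM-Wnt-liver.

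Other NRF2 targets were split too, 7 higher and 9 lower of 19 against metM-Wnt-lung (median -0.08) and 6 and 9 against metM-Wnt-liver (median -0.15). The shares of all genes, here and for the next lists, are those given for the regulators. The export pump Abcc4 was higher by 2.32 and 1.95, while the epoxide hydrolase Ephx1 had log2 differences of -2.29 and -2.73. Of 13 thioredoxin and peroxiredoxin genes, 8 were higher and 4 lower against metM-Wnt-lung (median 0.13), and 7 and 5 against metM-Wnt-liver (median 0.22). Txnrd3 was 2.45 and 2.24 higher, and Prdx4, the peroxiredoxin of the endoplasmic reticulum, had differences of -1.79 and -1.63. Of 13 genes of glutathione turnover, 9 were higher and 2 lower (median 0.47), and 7 and 1 (median 0.49). Ggt7, a member of the gamma-glutamyltransferase family, led them at 4.35 and 3.46, and Hagh, a glyoxalase, was 1.40 and 1.43 higher.

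The metM-Wnt lines differed less from each other: metM-Wnt-lung had 5 members higher and 7 lower than metM-Wnt-liver, beside 8.59% and 8.66% of all genes. The lower ones included 3 of the 4 glutathione supply genes, namely Slc7a11 (-1.60 ± 0.34, adjusted p = 0.000246), Gclm and Gclc (-0.52 ± 0.12, adjusted p = 0.000466). Within single conditions, Slc7a11 was called only in DIOSul tumors (-2.04, adjusted p = 0.0369), Gclm only in Con and DIOSul tumors (-0.93 and -0.95, adjusted p = 0.00509 and 0.00912) and Gclc in none (adjusted p = 0.0506 to 0.415). The higher ones included Gsr, Gpx8 (0.34 ± 0.09, adjusted p = 0.00262) and Nqo1 (0.92 ± 0.17, adjusted p = 2.51e-05). Nqo1 differed between these lines by 1.47 in DIO tumors (adjusted p = 0.000938) and by 1.29 in DIOSul tumors (adjusted p = 0.00531), and by 0.13 in Con tumors (adjusted p = 0.817). Its medians, for metM-Wnt-lung first, were 9.65 and 8.22 in DIO tumors and 8.88 and 8.98 in Con tumors. In the other lists, 1 of 10 regulators was higher and 2 were lower, and 0 and 5 of 19 targets. So were 2 and 3 of 13 thioredoxin genes and 0 and 4 of 13 turnover genes. The shares of all genes were the same 8.59% and 8.66%.

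Within the lines, Gsr, the enzyme that recycles oxidised glutathione, was lower with sulindac in obese mice in E0771 and metM-Wnt-lung. In E0771, Gsr lay at 15.02, 15.30 and 15.64 in the 8 DIO tumors (mean 15.30 ± 0.21, SD) and at 14.42, 14.60 and 15.10 in the 8 DIOSul tumors (14.71 ± 0.26). Of the DIOSul tumors, 7 were below the lowest DIO tumor. The difference was -0.59 ± 0.12 (SE, adjusted p = 0.00251). It was called in every alternative fit run and with each tumor left out in turn (-0.65 to -0.54, adjusted p 0.00107 to 0.008).

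In metM-Wnt-lung, Gsr lay at 14.60, 15.28 and 15.81 in DIO tumors and at 14.17, 14.41 and 14.77 in DIOSul tumors, 6 of 7 of them below the lowest DIO tumor. The difference was -0.73 ± 0.15 (adjusted p = 0.0273). It was not called when any of 8 of the 14 tumors was left out (-0.83 to -0.63, adjusted p up to 0.0781), nor with the adipocyte and muscle scores as covariates (-0.65, adjusted p = 0.0684) or without the arrays high in muscle or skin markers (-0.62, adjusted p = 0.456). In metM-Wnt-liver, Gsr lay at 13.82, 13.99 and 14.53 in DIO and at 13.27, 13.48 and 14.16 in DIOSul tumors, with 5 of 7 below the lowest DIO tumor. That difference, -0.46 ± 0.19, did not pass the threshold (unadjusted p = 0.0189, adjusted p = 0.541).

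The sizes of this Gsr difference were not shown to differ between lines: E0771 less metM-Wnt-lung was 0.14 ± 0.21 (adjusted p = 0.866), E0771 less metM-Wnt-liver -0.13 ± 0.21 (adjusted p = 0.898) and metM-Wnt-lung less metM-Wnt-liver -0.27 ± 0.21 (adjusted p = 0.999). In control mice the ConSul minus Con difference of Gsr was -0.15 ± 0.14 in E0771 (adjusted p = 0.838), -0.10 ± 0.16 in metM-Wnt-lung (adjusted p = 0.696) and 0.19 ± 0.22 in metM-Wnt-liver (adjusted p = 0.632). The interaction, the sulindac difference in obese less that in control mice, did not pass in any line either, with -0.45 ± 0.18 in E0771 (adjusted p = 0.25), -0.63 ± 0.22 in metM-Wnt-lung (adjusted p = 0.0686) and -0.65 ± 0.29 in metM-Wnt-liver (adjusted p = 0.219). Macrophage markers moved the other way beside Gsr in E0771, where 6 of 8 were higher in DIOSul than in DIO tumors (median 1.46, averaged level 11.24 to 12.6 in DIO and 12.71 to 13.6 in DIOSul), and T cell markers rose in 5 of 6 (median 2.11). Neutrophil markers were lower in 2 of 6 and higher in 0 (median -1.77), with a score of -0.17 to 3.14 in DIO and -1.36 to 1.87 in DIOSul tumors, and 1 of 2 red cell markers was lower (median -1.90). Of all genes 3.02% were higher and 2.01% lower in that comparison. With group means removed, Gsr had r = -0.13 with the macrophage score over 28 E0771 tumors, -0.62 over 26 metM-Wnt-lung and -0.59 over 25 metM-Wnt-liver tumors, and with the neutrophil score r = 0.42, 0.28 and 0.24, values that share array and dissected tissue. The part of these cells in the Gsr difference was not tested.

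**Figure D3:**
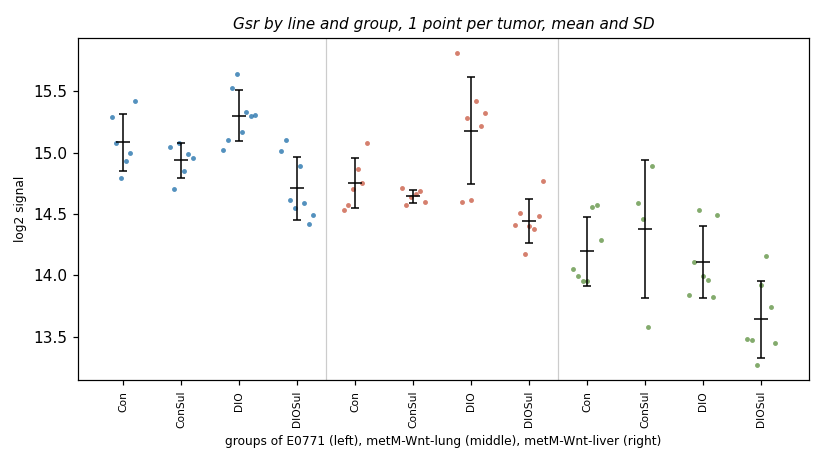
Gsr array signal (log2 scale, vertical axis) in each tumor by line and group (horizontal axis), with group means and SD. In E0771, DIO tumors lie at 15.02 to 15.64 and 7 of 8 DIOSul tumors below them, and the metM-Wnt-liver tumors lie lowest, at 13.27 to 14.89.

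Beyond Gsr, E0771 tumors changed little with diet or sulindac. For DIOSul against DIO, 2 members were higher and 1 (Gsr) lower, beside 3.02% and 2.01% of all genes, and the members' median difference was 0.02 against -0.02. The higher ones were Gstm5 (DIO 4.90, 5.67 and 6.04, DIOSul 5.60, 6.46 and 8.25) and Gstp3 (DIO 3.95, 4.32 and 5.46, DIOSul 4.77, 5.10 and 5.68), whose medians lay below that of the median gene. Their differences were 1.09 ± 0.33 (adjusted p = 0.05, just under the threshold before rounding) and 0.66 ± 0.20 (adjusted p = 0.0467). Leaving out single tumors ended the call in 12 of 16 cases for Gstm5 and 10 of 16 for Gstp3.

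For DIO against Con in E0771, 0 members were higher and 1 was lower, beside 2.42% and 2.75% of all genes. The lower one was Gstm4, at 6.62, 7.46 and 8.42 in Con and 5.65, 6.22 and 7.02 in DIO tumors. Of the DIO tumors, 6 of 8 were below the lowest Con tumor, a difference of -1.20 ± 0.26 (adjusted p = 0.0101). It was -0.92 (adjusted p = 0.0783) with the adipocyte and muscle scores as covariates. In that comparison 1 of 10 adipocyte markers was lower and 0 higher (median -1.25), and 5 of 8 macrophage and 3 of 6 fibroblast markers were lower. Of the other lists, only Ggt7 (1.08 ± 0.26, adjusted p = 0.0169) was called for obesity and only Maff, a small MAF partner of NRF2 (-0.86 ± 0.25, adjusted p = 0.0419), for sulindac in obese mice.

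In control mice sulindac gave 0 called members in E0771, where 0% of all genes were called and 3 members had an unadjusted p under 0.05. The members with the smallest p were Gpx6 (0.89 ± 0.29, adjusted p = 0.39) and Gstp2 (0.54 ± 0.24, adjusted p = 0.547). DIOSul against ConSul gave 0 members beside 0.0974% of genes, and the E0771 interaction 0 beside 0.405%. In metM-Wnt-liver, DIO against Con gave 0 members and 0% of genes (2 members and 1045 genes at an unadjusted p under 0.05), and DIOSul against DIO 0 and 0% (6 members and 1470 genes). In metM-Wnt-lung, DIOSul against DIO gave 0 higher members and 1 lower, Gsr, beside 0.164% and 0.082% of genes, and DIOSul against ConSul 0 beside 0.226%.

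The comparisons within a line that called many members all used the arrays of wider range. Between DIO and Con tumors of metM-Wnt-lung, 3 members rose and 17 fell, beside 14% and 13.4% of all genes, with a median difference of -0.33 against 0.04. All 7 mu transferases, 3 of 4 theta transferases, Gstk1, Gsta4, Gstz1, Gpx1, Gpx3, Gpx7 and Mgst1 were lower. Gsr, Gsto1 and Mgst2 were higher. The mu genes moved together and may share signal through similar probes, so their separate calls are uncertain. Gstm3, Gstm4, Gstm6 and Gstm7 (means 4.87, 6.59, 4.48 and 4.69) were also dimmer than the median gene. For ConSul against Con, 1 member was higher and 10 lower, beside 8.4% and 9.01%. These comparisons share the Con tumors, so their lists are not independent of each other.

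Gpx3, the secreted peroxidase of plasma that adipose tissue also makes, lay at 13.19, 15.32 and 16.00 in metM-Wnt-lung Con tumors, at 7.43, 10.59 and 14.05 in DIO and at 9.64, 11.29 and 12.53 in ConSul. Con stood apart from ConSul and overlapped only the upper end of DIO. The differences from Con were -4.91 ± 0.83 (adjusted p = 0.000118) for DIO and -3.78 ± 0.87 (adjusted p = 0.00392) for ConSul. Mgst1, a membrane transferase with peroxidase activity, lay at 12.48, 15.03 and 17.28 in Con, 8.48, 10.30 and 14.55 in DIO and 10.02, 11.26 and 12.73 in ConSul. Its differences were -4.40 ± 0.79 (adjusted p = 0.000219) and -3.73 ± 0.82 (adjusted p = 0.00287).

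The mu genes showed smaller steps with less spread. Gstm5 lay at 7.98, 8.43 and 8.79 in Con, apart from DIO (6.06, 6.91 and 7.70) and ConSul (6.74, 7.20 and 7.59), with differences of -1.40 ± 0.27 (adjusted p = 0.000403) and -1.20 ± 0.28 (adjusted p = 0.0043). Gstm4 differed by -2.12 ± 0.35 (adjusted p = 7.94e-05) and -1.77 ± 0.36 (adjusted p = 0.00144), and Gstm6 by -1.39 ± 0.19 (adjusted p = 1.2e-05) and -1.22 ± 0.20 (adjusted p = 0.000215). Gstm1 fell by 1.28 ± 0.42 in DIO (adjusted p = 0.0248), and Gsta4 by 0.79 ± 0.30 (adjusted p = 0.0479). Mgst2, which also makes leukotriene C4, ran the other way, from 10.11, 10.58 and 10.76 in Con to 10.62, 11.68 and 12.08 in DIO, a difference of 1.05 ± 0.23 (adjusted p = 0.00141). Gsr was 0.43 ± 0.15 higher in DIO (adjusted p = 0.0395). The calls of Gsr and Gsta4 were each lost in 9 of 13 cases when a single tumor was left out (adjusted p up to 0.1 and 0.16), and that of Gstm1 in 3 of 13.

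Adipocyte, macrophage and fibroblast markers moved with these genes. In metM-Wnt-lung, 10 of 10 adipocyte markers were lower in DIO than in Con (median -5.74) and 10 of 10 in ConSul (median -4.95). Their averaged level was 9.19 to 15.76 in Con, 4.04 to 10.62 in DIO and 5.02 to 8.64 in ConSul. Macrophage markers were lower in 7 of 8 cases in both comparisons, with an averaged level of 14.62 to 15.04 in Con and 12.22 to 14.07 in DIO, and fibroblast markers in 5 and 6 of 6. Of all genes 13.4% were lower for DIO and 9.01% for ConSul. With the adipocyte and muscle scores as covariates, 0 of the 41 genes were called in either comparison. Calls over all genes fell in that fit as well, from 5340 to 397 for DIO and from 3396 to 592 for ConSul. The adipocyte score itself differed between these groups (mean 4.55 in Con, -2.11 in DIO and -0.85 in ConSul), so the fit separates group and score poorly. The share of each cell type in the differences was not tested.

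In metM-Wnt-liver the wider-range arrays were the ConSul group, and Gpx3, Mgst1, Gstm4 and Gstt2 were high there. ConSul against Con gave 6 higher members and 1 lower, beside 5.76% and 5.65% of all genes, and DIOSul against ConSul 0 higher and 9 lower, beside 6.22% and 6.95%. Both comparisons share the 4 ConSul tumors. Gpx3 was 12.42, 12.93, 15.11 and 14.67 in these 4 tumors, where Con lay at 9.41, 10.58 and 12.14 and DIOSul at 9.47, 11.23 and 12.91. The ConSul tumors were above all Con tumors, by 3.05 ± 0.73 (adjusted p = 0.00821), and DIOSul differed from them by -2.75 ± 0.73 (adjusted p = 0.0142). With the adipocyte and muscle scores as covariates, 0 members were called in either comparison, where 327 and 190 of all genes were. A fit with a shared term for the wider-range arrays also called 0 members, beside 10 of all genes in each comparison. That fit gives both metM-Wnt lines 1 common value per comparison, which was -0.24, -0.26 and -0.37 for Gpx3, Gstm4 and Mgst1 in ConSul against Con. Gpx3 alone differed by -3.78 in metM-Wnt-lung and by 3.05 in metM-Wnt-liver, so the common value cannot show either line's own difference.

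Mgst1 was 13.75, 15.20, 13.74 and 14.65 in the ConSul tumors, against 8.94, 11.41 and 13.34 in Con and 9.87, 11.73 and 12.96 in DIOSul. ConSul overlapped neither group, with differences of 2.87 ± 0.61 from Con (adjusted p = 0.0038) and -2.72 ± 0.61 for DIOSul (adjusted p = 0.0051). The other members higher in ConSul than in Con were Gstt2 (1.32 ± 0.33, adjusted p = 0.012), Gstm4 (1.19 ± 0.33, adjusted p = 0.0202), Gpx8 (0.80 ± 0.21, adjusted p = 0.0146) and Gstt4 (0.66 ± 0.20, adjusted p = 0.0309). The lower one was Mgst2, with medians of 11.08 in Con and 10.21 in ConSul (adjusted p = 0.0492). Gsr was 14.59, 14.46, 13.58 and 14.89 in the ConSul tumors and DIOSul differed from them by -0.74 ± 0.22 (adjusted p = 0.0253), a call lost in 3 of 11 cases with a tumor left out. Adipocyte markers were higher in 10 of 10 cases in ConSul (median 4.09), with an averaged level of 10.83 to 13.18 against 3.84 to 10.82 in Con, and macrophage markers in 6 of 8 (median 1.16). Of all genes 5.76% were higher there.

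**Figure D4:**
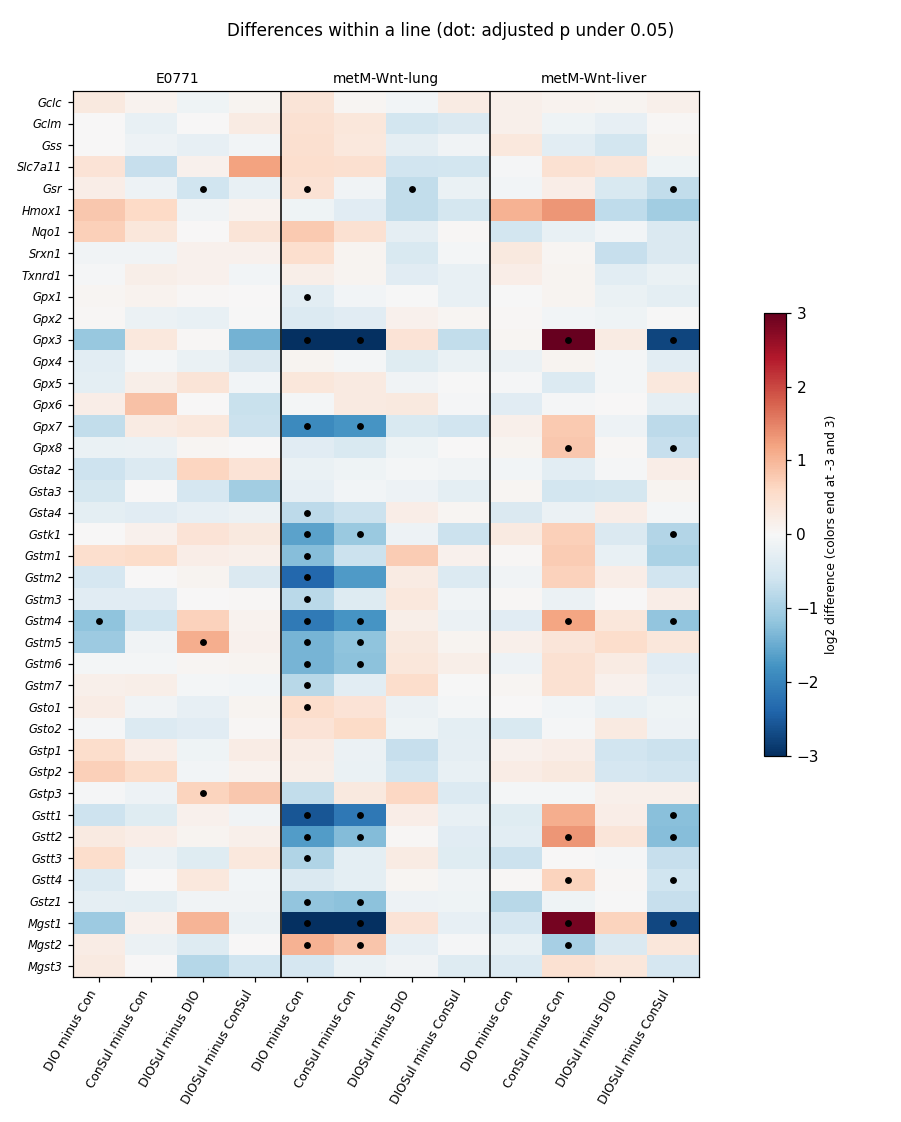
Differences in array signal (log2 scale, colors, which end at 3 in either direction) of the 41 genes (vertical axis) in the within-line comparisons (horizontal axis); a dot marks an adjusted p under 0.05. The dots gather in the metM-Wnt-lung comparisons with Con (17 lower for DIO) and the metM-Wnt-liver comparisons with ConSul (9 lower for DIOSul), and E0771 columns hold few.

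Gpx3 and Mgst1 varied with the adipocyte score, the mean of 10 markers each centred on its line, and with other host cell scores. For Gpx3, r with the adipocyte score was 0.77 over 28 E0771 tumors, 0.89 over 26 metM-Wnt-lung tumors and 0.71 over 25 metM-Wnt-liver tumors, and 0.77 and 0.44 in the metM-Wnt lines without the groups of wider range (20 and 21 tumors). For Mgst1 it was 0.85, 0.95 and 0.90, and 0.84 and 0.78 without those groups. With group means removed, Gpx3 had r = 0.76, 0.70 and 0.46 with the adipocyte score in E0771, then metM-Wnt-lung, then metM-Wnt-liver, and 0.84, 0.83 and 0.57 with the fibroblast score. Mgst1 had 0.84, 0.87 and 0.79 with the adipocyte score, 0.71, 0.85 and 0.55 with the fibroblast score and 0.49, 0.82 and 0.78 with the mammary epithelium score. Marker and member were read on the same arrays and in the same piece of tissue. The E0771 tumors, whose arrays were not sorted by range, covered 9.19 to 15.21 for Gpx3 and 10.59 to 15.98 for Mgst1.

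**Figure D5:**
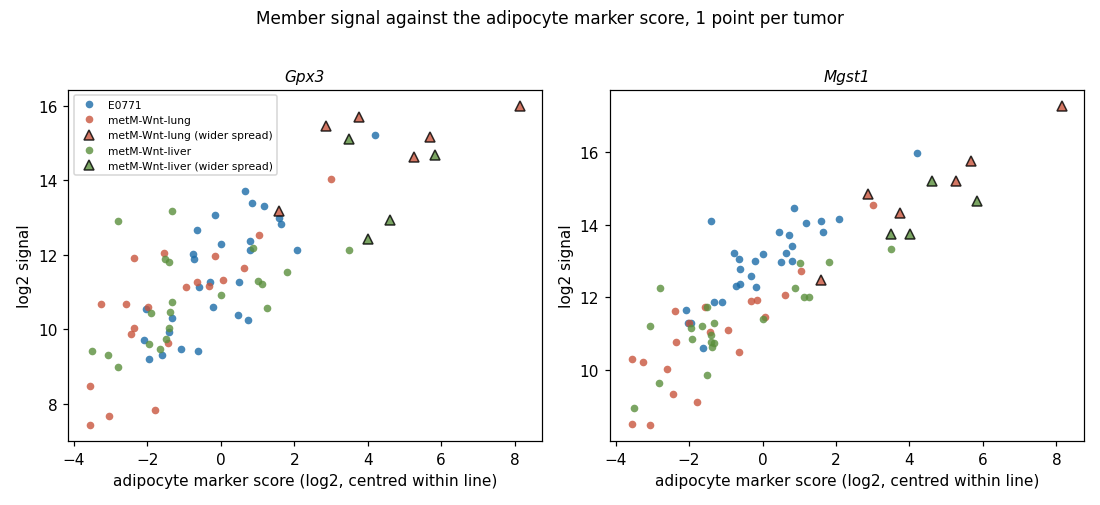
Gpx3 and Mgst1 array signal (log2 scale, vertical axis) against the adipocyte score (log2 units from the line mean, horizontal axis) per tumor and line; triangles are the wider-range arrays. Mgst1 rises with the score in each line (r = 0.85 in E0771, 0.95 in metM-Wnt-lung, 0.90 in metM-Wnt-liver).

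The same arrays enter the tests of differences between effects. For DIO against Con, 7 members were higher and 0 lower in E0771 less metM-Wnt-lung, beside 3.69% and 3.02% of all genes, and 2 higher and 10 lower in metM-Wnt-lung less metM-Wnt-liver, beside 5.12% and 6.4%. E0771 less metM-Wnt-liver, the only pair that uses neither wider-range metM-Wnt group, gave 0 members beside 0.0615%. For DIOSul against DIO, 0 members were called in E0771 less metM-Wnt-lung (0.497% of genes), E0771 less metM-Wnt-liver (0.692%) and metM-Wnt-lung less metM-Wnt-liver (0%). The interaction gave 5 higher members and 1 lower in metM-Wnt-lung, beside 5.37% and 3.62%, and 0 and 1 in metM-Wnt-liver, beside 0.923% and 1.3%, the latter being Gstk1 (-1.15 ± 0.31, adjusted p = 0.0498). That Gstk1 call was lost in 19 of 25 cases with a tumor left out (adjusted p up to 0.112), and the count was 0 in most alternative fits.

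Regulators of the pathway were also called in metM-Wnt-lung, in comparisons that use the wider-range Con arrays. For DIO against Con 5 of 10 were higher and 1 lower (median 0.37), beside 14% and 13.4% of all genes. They included Nfe2l2 (0.58 ± 0.15, adjusted p = 0.00509) and, as the lower one, Keap1 (-0.67 ± 0.17, adjusted p = 0.00397). The part of the wider range in these calls was not tested. Other NRF2 targets had 4 higher and 2 lower of 19 (median 0.05), thioredoxin genes 2 and 3 of 13 (median 0.04) and turnover genes 2 and 0 of 13 (median 0.17). Cbr1, a carbonyl reductase, was lower by 1.91 ± 0.19 (log2 difference -1.91, adjusted p = 2.32e-07), and in metM-Wnt-liver it was 1.78 ± 0.21 higher in ConSul than in Con (adjusted p = 1.56e-05), so that it too was high on the wider-range arrays. For ConSul against Con in metM-Wnt-lung, 3 and 0 of 10 regulators, 1 and 2 of 19 targets, 1 and 2 of 13 thioredoxin genes and 3 and 1 of 13 turnover genes were called higher and lower. Of all genes 8.4% and 9.01% were.

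Over all 79 tumors the line accounted for a median of 31.2% of a member's variance, the group within the line for 15.1% and tumors within a group for 49.2%, against 18.1%, 14.4% and 59.6% for all genes. The line share was above 50% in 12 of 41 members (29.3%) and in 22.9% of all genes. It was highest for Txnrd1 (83.7%), Gstk1 (81.5%), Gstt3 (79.3%), Srxn1 (75.4%), Gclc (69.2%) and Gpx8 (61.4%). Group within line weighed most for Gstm4 (52.5%), Gpx3 (47.8%) and Mgst1 (47.2%), and Gpx3 had a line share of 0.417%.

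Members also varied together to some extent among tumors of the same group. With group means removed, the 300 pairs of the 25 brighter members had a median r of 0.11 over 28 E0771 tumors, 0.16 over 26 of metM-Wnt-lung and 0.20 over 25 of metM-Wnt-liver, and 23, 58 and 48 pairs were above 0.5 and 4, 25 and 6 below -0.5. Among the 8 genes of glutathione supply and NRF2 response paired here (Gclc, Gclm, Gsr, Hmox1, Nqo1, Slc7a11, Srxn1 and Txnrd1), 3, 13 and 15 of 28 pairs were above 0.5, such as Gclm with Slc7a11 (0.79) and Hmox1 with Srxn1 (0.78) in metM-Wnt-liver. The closest pair was Gstp1 with Gstp2 (r = 0.93, 0.89 and 0.93), near-identical genes whose probes may read each other. Among the NRF2 targets, Gclm went with Hmox1 (0.58, 0.87 and 0.89) and with Srxn1 (0.55, 0.56 and 0.70) in every line. Of the 7 pairs with Nqo1, 0, 1 and 0 were above 0.5, and its r was 0.17, 0.27 and -0.02 with Gclm and 0.19, 0.25 and 0.03 with Hmox1. Slc7a11 had r = 0.85, 0.55 and 0.45 with the neutrophil score and 0.02, -0.75 and -0.62 with the macrophage score. Srxn1 had -0.42, -0.72 and -0.51 with the macrophage score and -0.55, -0.86 and -0.22 with the fibroblast score. These correlations are descriptions over tumors that share their arrays and their dissected tissue.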

How the data were processed

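Tumor RNA was hybridised by the authors to Clariom S Mouse HT arrays, and the deposited log2 values are the authors' SST-RMA signals from the Transcriptome Analysis Console, with no missing values among 22206 transcript clusters. Whether the 3 lines were normalised together is not given in the sources used here. The RNA kit named differs between the labels and the methods, and so does the timing of injection. Symbols came from the platform annotation, under which 19572 clusters had 1 symbol and 2634 had none. For the 55 genes with several clusters the brightest was kept, leaving 19505 genes. Each of the 41 members had 1 cluster, and all matched RefSeq (GRCm38.p6).

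Differences were fitted with limma 3.58.1 in R 4.3.3, each line in a fit of its own with 4 groups, and the lines in a fit of all 12 groups. P-values were adjusted over all genes by Benjamini-Hochberg, with 0.05 as the threshold, and the steps were tested on simulated data. The number of arrays limits the precision, and p-values measure the spread between tumors. Named with values were 13 standing enzymes, up to 6 called members per comparison with the smallest adjusted p (or the 2 with the smallest p where none was called) and up to 3 genes of each other list. Pairs, correlations and overlaps were described without tests. Members and lists were chosen with earlier results of these data known. Alternatives were quantile normalization, a filter on dim genes, averaged clusters, array weights, a trended variance, a replicate block, marker scores as covariates, leaving out single arrays or those with a muscle score over 2 or a skin score over 1, fitting only the groups compared, single conditions, and both metM-Wnt lines in 1 fit with a shared term for the wider-range arrays.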

Additional observations from a re-analysis of the deposited data

Results flagged for a closer look

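Of 228 sets of 1 member in 1 group, over 19 members, 14 held a tumor far from the rest of its group, where chance gives about 1 in 20. Nqo1 was 7.68 in metM-Wnt-lung Con tumor 3 (others 8.72 to 9.18) and 10.18 in metM-Wnt-lung ConSul tumor 1 (others 8.71 to 9.16). Gclc was 12.92 in E0771 DIO tumor 1 (others 11.31 to 11.89) and 10.79 in metM-Wnt-lung Con tumor 4 (others 9.62 to 10.04). Srxn1 was 13.30 in E0771 DIOSul tumor 1 (others 12.38 to 12.71). In metM-Wnt-liver DIO tumor 3, Gss was 8.87 (others 7.97 to 8.29) and Gpx4 15.03 (others 14.48 to 14.62). In E0771 DIO tumor 7, Gstm1 was 9.34 (others 10.81 to 11.31) and Gstp1 13.69 (others 14.38 to 14.79). Gstp3 was 5.30 in E0771 Con tumor 3 (others 4.11 to 4.54) and 6.31 in metM-Wnt-lung DIO tumor 3 (others 3.92 to 4.93).

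The other 3 values lay on arrays high in muscle or skin markers. Gss was 7.03 in metM-Wnt-lung Con tumor 1 (others 7.71 to 8.09), Gstm1 was 12.01 in E0771 ConSul tumor 1 (others 10.45 to 10.92) and Gstm5 was 8.17 in E0771 ConSul tumor 2 (others 5.91 to 6.60).

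Among the named members, 20 effects differed between groups by limma's test of the difference itself, and each rests on a group of wider-range arrays. The sulindac difference in obese less that in control mice of metM-Wnt-lung was 1.56 for Gstm6 (adjusted p = 0.001), 1.95 for Gstm4 (0.0146), 1.49 for Gstm5 (0.0154), 4.16 for Mgst1 (0.0219), 4.18 for Gpx3 (0.0276) and -1.08 for Mgst2 (0.0363). In metM-Wnt-liver it was -1.15 for Gstk1 (adjusted p = 0.0498).

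The DIO minus Con difference of E0771 less that of metM-Wnt-lung was 1.95 for Gstt2 (adjusted p = 0.00743), 1.62 for Gstk1 (0.00784), 1.34 for Gstm6 (0.00784), 1.43 for Gstt3 (0.0177), 3.32 for Mgst1 (0.0219) and 3.77 for Gpx3 (0.0275). That of metM-Wnt-lung less metM-Wnt-liver was -1.87 for Gstk1 (adjusted p = 0.000884), -4.98 for Gpx3 (0.00162), -3.89 for Mgst1 (0.00354), -1.78 for Gstm4 (0.00404), -1.25 for Gstm6 (0.00677), -2.07 for Gpx7 (0.0125) and 1.35 for Nqo1 (0.0465).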

How the results depend on the processing

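Counts of called members stayed within 1.5 times in 347 of the fits run and moved in 95. Of the named members' values, 1457 kept direction and side of the threshold, 244 lost the call, 3 gained one and 17 turned. The cause of these moves was not tested.

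With adipocyte and muscle scores as covariates the counts were 0 for E0771 DIO minus Con, for metM-Wnt-lung DIO minus Con, ConSul minus Con, DIOSul minus DIO and interaction, and for metM-Wnt-liver ConSul minus Con, DIOSul minus ConSul and interaction. In the same order, 218, then 397, 592, 52 and 115, then 327, 190 and 153 of all genes were called. In that fit Gpx3 turned to 0.28, 0.16 and -0.91 and Mgst1 to 0.66, 0.29 and -0.76 for metM-Wnt-lung DIO minus Con, ConSul minus Con and interaction, Gsta4 to 0.06 and Mgst2 to -0.02 for DIO minus Con, Gstt1 to 0.24 for ConSul minus Con, and Mgst1 to 0.00 for metM-Wnt-liver DIOSul minus ConSul. The fit with a shared term for the wider-range arrays gave both metM-Wnt lines 1 common value per gene in every comparison, so it shows neither line's own difference. Its counts were 0 for DIO minus Con, ConSul minus Con, DIOSul minus ConSul and interaction, beside 131, 10, 10 and 4 of all genes. They were 3 for DIOSul minus DIO, beside 425: Gsr -0.60, Gstp1 -0.62 and Gstp2 -0.55 (adjusted p = 0.00653, 0.0192 and 0.0359). The common value had the other sign than the single-line fit for Gpx3, Gstm4 and Mgst1 in metM-Wnt-liver ConSul minus Con (-0.24, -0.26 and -0.37). The same held for Gstm4 and Mgst1 in metM-Wnt-liver DIOSul minus ConSul (0.05 and 0.15) and for Mgst2 in metM-Wnt-lung DIO minus Con (-0.08). Slc7a11 turned to -0.26 for E0771 minus metM-Wnt-lung in ConSul tumors.

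Array weights, whose estimation stopped short of full convergence in some fits, gave 8 for E0771 DIO minus Con, 10 for DIOSul minus DIO and 1 for its interaction, 2 and 10 for metM-Wnt-lung DIOSul minus DIO and interaction, and 12 and 1 for the DIO minus Con difference of E0771 less metM-Wnt-lung and less metM-Wnt-liver. Only genes above the median gave 2 for E0771 DIO minus Con, 6 for metM-Wnt-lung ConSul minus Con, 3, 5 and 0 for metM-Wnt-liver ConSul minus Con, DIOSul minus ConSul and interaction, and 7 for DIO minus Con of metM-Wnt-lung less metM-Wnt-liver. Calls over all genes kept there were 1193, then 1948, then 1028, 1218 and 176, then 1682. Quantile normalization and a trended variance each gave 2 for E0771 DIO minus Con and 0 for the metM-Wnt-liver interaction. Beside these, 1047 and 1095 of all genes were called for the first, and 365 and 437 for the interaction. Without arrays high in muscle or skin markers the counts were 1 for E0771 DIOSul minus DIO, 4, 0 and 1 for metM-Wnt-lung ConSul minus Con, DIOSul minus DIO and interaction, and 3, 2 and 0 for metM-Wnt-liver ConSul minus Con, DIOSul minus ConSul and interaction. Over all genes that fit called 533, then 1690, 0 and 408, then 1426, 1244 and 112. Fitting only the groups compared gave 3 for metM-Wnt-liver ConSul minus Con and 0 for metM-Wnt-lung DIOSul minus DIO, beside 1332 and 0 of all genes. Single conditions gave 20 (ConSul) and 19 (DIO) for E0771 minus metM-Wnt-lung, and 6 (ConSul), 6 (DIO) and 4 (DIOSul) for metM-Wnt-lung minus metM-Wnt-liver. Of all genes, 8411 and 8617, then 2166, 1648 and 1274 were called.

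Leaving out 1 tumor at a time gave 1 to 4 for E0771 DIO minus Con, 1 to 2 for DIOSul minus DIO and 0 to 1 for its interaction, 3 to 8 for metM-Wnt-liver ConSul minus Con, 3 to 9 for DIOSul minus ConSul and 0 to 1 for its interaction, and 0 to 2 and 5 to 12 for metM-Wnt-lung DIOSul minus DIO and interaction.

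Replicate numbers did not pair tumors: same-numbered tumors had a mean r of -0.00692 in E0771, 0.043 in metM-Wnt-lung tumors and -0.0116 in those of metM-Wnt-liver, and 3 of 28, 5 of 26 and 1 of 25 correlated best with their own number. With the replicate number as a block the counts were 2 for E0771 DIO minus Con, 1 for E0771 DIOSul minus DIO and 0 for the metM-Wnt-liver interaction. Beside these, 583, 808 and 293 of all genes were called.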
